A study of Rattus norvegicus with 9 samples.

Results

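The 7 genes Fap, Pdgfra, Thy1, Pdpn, S100a4, Dpt and Pi16, widely used as markers of cancer-associated fibroblasts, were followed in RNA sequencing of the rat colon carcinoma line CC-531. They were chosen by symbol, with no limit on their level, and with earlier results of these data known. All 7 were found among the 34322 genes of the count table. Each of 3 sample types was sequenced in 3 libraries. Ex vivo tumors (1, 2 and 3) had grown in WAG/Rij rats that were 8 to 10 weeks old when CC-531 cells were injected intraperitoneally. Organoids (p7, p8 and p9) were the same line grown in matrigel, and cells (p5, p8 and p11) were the line in RPMI1640 medium with 10% serum. No sequenced sample was labelled as drug treated or heated. CC-531 is 1 tumor cell line, so cells and organoids held no fibroblasts put there by the design, whereas an ex vivo tumor holds tumor cells together with whatever host tissue was taken with it. The tumors were compared with both cultures, and organoids with cells, to ask which of the markers differ between growth in the animal and in culture.

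Fibroblasts make and remodel the connective tissue matrix, and those inside a carcinoma are called cancer-associated fibroblasts. They are usually divided into contractile, matrix-producing (myofibroblastic) and cytokine-secreting (inflammatory) states, and a further population that expresses Dpt and Pi16 has been described across many tissues of the mouse as a universal, adventitial type. None of the 7 markers is exclusive to fibroblasts: podoplanin is also made by lymphatic endothelium and mesothelium, Thy-1 by T cells and neurons, and S100a4 by macrophages, T cells and many carcinoma cells. In bulk RNA a gene can be higher because more cells of a type were present or because each cell held more of its RNA, and these cannot be told apart here.

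The 250 bases upstream of the start of 4 of the genes are shown because their counts behaved differently: Fap, Pdpn and Dpt were close to 0 in both cultures, and S100a4 was counted in every library. They are RefSeq sequences of the rat build GRCr8, 5′ to 3′ on the strand of the gene, while the counts were made on another build, mRatBN7.2. Fap lies at chr3:67616092-67616341 on the minus strand, Pdpn at chr5:160918960-160919209 on the minus strand, S100a4 at chr2:178388279-178388528 on the plus strand and Dpt at chr13:79656091-79656340 on the plus strand. Capitals mark matches to the motifs searched.
Fap: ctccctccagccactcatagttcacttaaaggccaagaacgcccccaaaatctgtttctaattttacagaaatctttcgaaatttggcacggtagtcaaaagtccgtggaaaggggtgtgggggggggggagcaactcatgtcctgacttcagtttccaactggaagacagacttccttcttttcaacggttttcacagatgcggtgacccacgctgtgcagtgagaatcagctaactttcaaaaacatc
Pdpn: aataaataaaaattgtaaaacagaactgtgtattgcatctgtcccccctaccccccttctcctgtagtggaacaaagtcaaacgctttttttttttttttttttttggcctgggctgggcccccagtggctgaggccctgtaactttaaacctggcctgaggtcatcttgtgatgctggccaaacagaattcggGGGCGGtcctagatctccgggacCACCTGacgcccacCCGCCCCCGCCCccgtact
Dpt: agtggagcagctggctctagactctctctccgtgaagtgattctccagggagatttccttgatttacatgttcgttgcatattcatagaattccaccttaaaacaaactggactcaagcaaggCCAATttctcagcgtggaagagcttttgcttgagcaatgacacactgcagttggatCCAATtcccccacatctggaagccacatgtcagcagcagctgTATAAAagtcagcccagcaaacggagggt
S100a4: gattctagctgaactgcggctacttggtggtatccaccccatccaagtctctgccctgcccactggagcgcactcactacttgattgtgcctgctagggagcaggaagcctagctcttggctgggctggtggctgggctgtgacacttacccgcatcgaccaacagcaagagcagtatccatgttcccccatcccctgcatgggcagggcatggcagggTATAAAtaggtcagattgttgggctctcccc
A set of 6 motifs was searched on both strands of 33469 such windows, and no motif contains another. The TATA box TATAAA was found in 12.9% of all windows, the CCAAT box CCAAT in 34%, the SP1 motif GGGCGG in 30.5%, the AP-1 motif TGANTCA in 6.34%, the TEAD motif GGAATG in 12.1% and the E-box of ZEB and SNAIL factors, CACCTG, in 15.9%. TATAAA began at -31 in S100a4 and at -29 in Dpt, counted from the start of transcription. Dpt also held CCAAT at -127 and -71. Pdpn held GGGCGG at -56, its reverse complement at -19 and -13, and CACCTG at -33. Fap held none of the 6. The window of Pdgfra had CCAAT on the reverse strand at -221 and TGAATCA at -35, and that of Pi16 had none. These matches describe letters in a window and were not tested for any role, and the TATA box was thus present upstream of a gene counted in every library and of one counted only in the tumors.

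Library totals were 12601774 to 18438055 counts in ex vivo tumors, 15968793 to 20444595 in organoids and 16983060 to 24335921 in cells. Levels are given as CPM, the count of a gene relative to the library total, scaled for library composition. A count of 0 in all 3 libraries of a type allows up to 3 counts, which is 0.0634 CPM in ex vivo tumors, 0.0561 in organoids and 0.0521 in cells, and such limits and the count intervals below cover counting error only. Organoid library p7 stood apart from p8 and p9: the chi-square per gene was 150 to 170 against them, and 4.17 between p8 and p9. The samples are labelled as different passages or numbered tumors, so p-values measure the spread between these samples, which may be partly technical.

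Fap, the membrane-bound serine protease of activated fibroblasts, was counted almost only in the ex vivo tumors, which hold tumor cells and host tissue. It had 10.0, 6.62 and 8.18 CPM in ex vivo tumors 1, 2 and 3, no count in any of the 3 organoid libraries and, of the cells, 0.0569 CPM in p11 from a single count. The 3 tumors lay within a narrow range, and none overlapped a culture. Fap averaged 8.27 ± 1.70 CPM in ex vivo tumors and 0.0190 ± 0.0328 CPM in cells (SD, n = 3 each), a ratio of 464 with a counting interval of 82.7 to 18355 (edgeR quasi-likelihood test, Benjamini-Hochberg adjusted p = 7.77e-05). Against organoids the tumors were at least 144-fold higher (adjusted p = 6.79e-05).

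Thy1, a glycolipid-anchored surface protein, had 61.5, 29.2 and 58.3 CPM in ex vivo tumors 1, 2 and 3, a single count in organoids p7 (0.0493 CPM) and none in cells. Tumor 2 had 0.487 times the mean of the other tumors, and all 3 were far above both cultures. The tumors were at least 898-fold higher than cells (adjusted p = 4.66e-06), and 2502-fold higher than organoids with a counting interval of 449 to 98878 (adjusted p = 5.46e-06).

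Pdpn, the mucin-like podoplanin, had 20.3, 16.2 and 22.2 CPM in ex vivo tumors 1, 2 and 3, no count in organoids, and 0.180, 0.170 and 0 CPM in cells p5, p8 and p11, from 4, 3 and 0 counts. It was the most even of the 4 genes over the tumors, at 19.6 ± 3.08 CPM (SD, n = 3). The tumors were 157-fold higher than cells (log2 fold change 7.26 ± 0.64 SE, adjusted p = 4.49e-05) and at least 340-fold higher than organoids (adjusted p = 2.44e-05).

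Dpt, dermatopontin, a small matrix protein that binds decorin and collagen, had 24.9, 8.30 and 16.1 CPM in ex vivo tumors 1, 2 and 3 and no count in any organoid or cell library. Tumor 1 had 2.05 times the mean of the other tumors, and the lowest tumor was still far above the limit that no count allows. The tumors were at least 294-fold higher than cells (adjusted p = 0.000169) and at least 274-fold higher than organoids (adjusted p = 2e-04). The annotated long noncoding RNA LOC102546371 overlaps Dpt in GRCr8, and no source used here says if counting kept the strand. How reads of the overlap were assigned is therefore not known.

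Together, Fap, Thy1, Dpt and Pdpn had 1631, 1221 and 1371 counts in ex vivo tumors 1, 2 and 3, against 1 count in organoids p7, none in p8 or p9, and 4, 3 and 1 counts in cells p5, p8 and p11. Not one culture library reached 5 counts for the 4 genes.

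Pdgfra, the receptor for PDGF ligands on mesenchymal cells, was counted in every library. It had 17.8, 17.0 and 34.5 CPM in ex vivo tumors 1, 2 and 3, 15.0, 4.94 and 4.81 CPM in the organoid libraries p7, p8 and p9, and 2.25, 1.92 and 4.10 CPM in cells p5, p8 and p11. The tumors were above every organoid and cell library, and the organoids above every cell library. Tumors were 8.14-fold higher than cells (log2 fold change 3.07 ± 0.54 SE, adjusted p = 0.00181). Against organoids the difference was 1.48 ± 0.50 on the log2 scale with adjusted p = 0.0658, so edgeR did not call it. DESeq2 (adjusted p = 0.00838) and limma-voom (2.31, adjusted p = 0.000217) did call it, the latter with each library weighted by its estimated quality. Both filters on low counts (0.042 and 0.0347) and housekeeping centering (0.0495) also called it. Organoids p7 had 3.08 times the mean of p8 and p9. Without that library the difference was 2.23 (adjusted p = 0.00369), and without tumor 3, the highest tumor, it was 1.07 (adjusted p = 0.246). Organoids were 3.22-fold above cells (log2 1.59 ± 0.52 SE, adjusted p = 0.133), with a 95% interval of 0.47 to 2.72, which edgeR did not call, and without p7 the difference was 0.82 (adjusted p = 0.299).

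Pi16, a secreted peptidase inhibitor-like protein of the cysteine-rich secretory family, was likewise counted in all 9 libraries. It had 32.7, 9.49 and 12.3 CPM in ex vivo tumors 1, 2 and 3, 8.04, 3.89 and 4.42 CPM in the organoid libraries p7, p8 and p9, and 2.65, 3.17 and 4.15 CPM in cells p5, p8 and p11. The tumors did not overlap either culture, while organoids and cells did overlap. Tumors were 5.24-fold higher than cells (log2 2.45 ± 0.50 SE, adjusted p = 0.00513) and 3.05-fold higher than organoids (log2 1.73 ± 0.49 SE, adjusted p = 0.0296). Tumor 1 had 3.00 times the mean of the other tumors, and without it the difference was 1.71 from cells (adjusted p = 0.0189) and 0.99 from organoids (adjusted p = 0.165). That call was also lost without organoids p8 (adjusted p = 0.115) or p9 (adjusted p = 0.112). The fit of the 6 libraries alone (adjusted p = 0.0688) and the 2-fold threshold (adjusted p = 0.177) did not give it either. Organoids were 0.72 ± 0.49 above cells on the log2 scale (adjusted p = 0.556). The long noncoding RNA LOC120098949 overlaps Pi16 in GRCr8, and how reads of that overlap were assigned is likewise not known.

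S100a4, a calcium-binding protein also known as fibroblast-specific protein, went against the other 6. It had 67.3, 25.2 and 27.7 CPM in ex vivo tumors 1, 2 and 3, 73.3, 56.2 and 57.6 CPM in the organoid libraries p7, p8 and p9, and 71.7, 44.6 and 63.0 CPM in cells p5, p8 and p11. Tumors 2 and 3 were below all 6 culture libraries and tumor 1 lay among them. The tumors differed from cells by -0.58 ± 0.36 on the log2 scale (95% interval -1.36 to 0.20, adjusted p = 0.32) and from organoids by -0.64 ± 0.36 (-1.42 to 0.14, adjusted p = 0.267). Without tumor 1 the tumors were called lower than cells (-1.18, adjusted p = 0.0147) and than organoids (-1.24, adjusted p = 0.0114). Organoids differed from cells by 0.06 (-0.72 to 0.84, adjusted p = 1). In these samples S100a4 therefore did not separate tumors with host tissue from cultures of the tumor line alone.

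**Figure D1:**
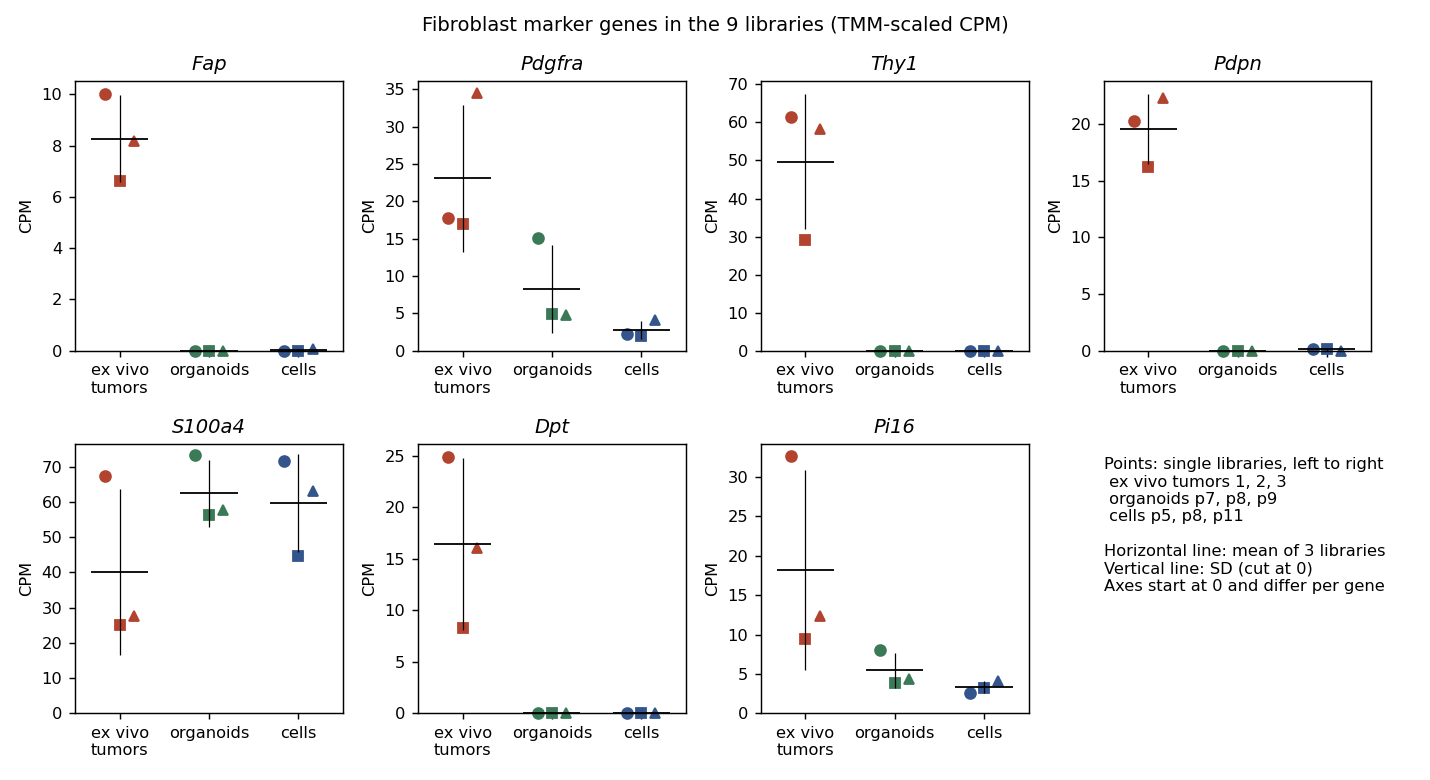
Levels of the 7 genes (CPM, axis from 0 in each panel) in the 9 libraries, with ex vivo tumors left, organoids in the middle and cells right; points are libraries, the horizontal line is the mean and the vertical line the SD of 3. Fap, Thy1, Pdpn and Dpt lie at or near 0 in every culture library, Pdgfra and Pi16 are counted in all 9, and S100a4 overlaps between the sample types.

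Counted over the list, 6 of the 7 genes were called higher in ex vivo tumors than in cells at an adjusted p under 0.05, where 12.6% of the 27324 genes with a count were, and 0 were called lower, where 3.54% were. In 6 of the 7 all tumors were above all cells, against 22% of all genes. Against organoids 5 of the 7 were called higher by edgeR (11.7% of all genes), 6 by DESeq2 and by limma-voom, and 4 to 6 by edgeR with 1 library left out, the 4 being without tumor 1, organoids p8 or organoids p9 and the 6 without organoids p7. In edgeR with all libraries 0 were lower (4.98%), and in 6 all tumors were above all organoids (20.8%). These comparisons share the tumor libraries. The markers were chosen with earlier results of these data known, so the counts describe the list and are no independent test. Between organoids and cells 0 of the 7 were called in either direction by edgeR (1.97% of all genes were higher and 1.18% lower), 1 gene, Pdgfra, had all organoids above all cells (10.5%), and 0 had all below (9.58%). At an unadjusted p under 0.05 edgeR had 0 markers lower in tumors in either comparison, limma-voom had 1, S100a4, in each, and DESeq2 had 0. Between organoids and cells edgeR had 1 higher, Pdgfra, and 1 lower, Pdpn, at an unadjusted p under 0.05. After adjustment DESeq2 called Pdgfra there (adjusted p = 0.0147), and limma-voom called Pdgfra higher (adjusted p = 0.0455) and Pdpn lower (adjusted p = 0.0123).

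**Figure D2:**
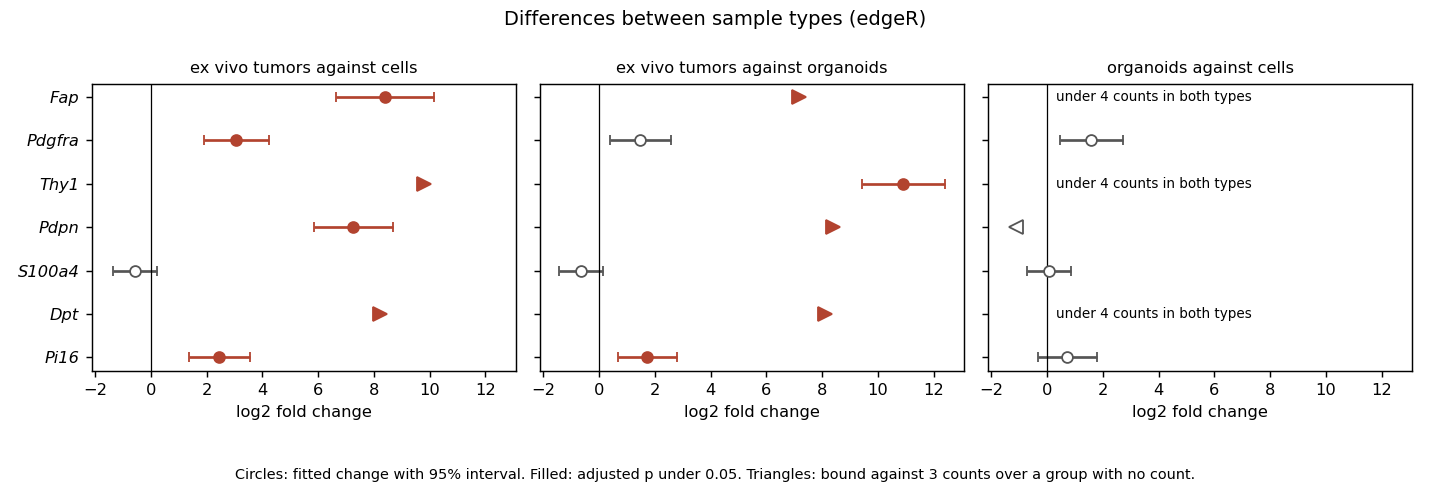
Differences between sample types on the log2 scale for the 7 genes; circles are edgeR estimates with 95% intervals, triangles are bounds against 3 counts over a type with none, and filled symbols have an adjusted p under 0.05. All filled symbols lie to the right of 0 in the comparisons of ex vivo tumors, S100a4 has intervals across 0, and no symbol is filled for organoids against cells.

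Other fibroblast genes were set beside the markers, in lists also chosen with earlier results of these data known. Some genes belong to several lists. Of all genes tested, 12.6% were called higher and 3.54% lower in ex vivo tumors than in cells. The shares against organoids were 11.7% and 4.98%. Of 20 matrix genes, 18 were higher in ex vivo tumors than in cells, with a median log2 fold change of 7.54 where the median of all genes tested was 0.31. Col1a1, a chain of type I collagen, had 2380 ± 908 CPM in tumors and 1.04 ± 0.568 CPM in cells (log2 11.18 ± 0.66 SE, adjusted p = 1.11e-06), and Dcn, decorin, had 87.3 ± 24.4 CPM in tumors and no count in cells, at least 1604-fold higher (adjusted p = 7.75e-06). Against organoids 20 of 20 were higher. Fbln1, fibulin 1, had 168 ± 24.4 CPM in tumors and 166 ± 26.4 CPM in cells. The summed CPM of the 20 genes was 6673 to 13486 in tumors, 130 to 168 in organoids and 303 to 422 in cells.

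The myofibroblastic genes behaved alike, with 13 of 16 higher than in cells (median 6.07). Postn, the matrix protein periostin, had 228 ± 135 CPM in tumors and a single count in cells (adjusted p = 1.15e-06), and Tnc, tenascin C, had the highest level of the list at 330 ± 149 CPM in tumors, against 0.791 ± 1.04 CPM in cells. The inflammatory genes were mixed: 7 of 14 were higher and 2 lower (median 1.96). Igf1, a growth factor, had 111 ± 12.9 CPM in tumors and none in cells, at least 2128-fold higher (adjusted p = 3.03e-06), whereas Ptgs2, the inducible cyclooxygenase, had 1.40 ± 1.02 CPM in tumors and 35.5 ± 17.1 CPM in cells (log2 -4.65 ± 0.60 SE, adjusted p = 0.000214). C3, with the highest level of that list, had 213 ± 58.7 CPM in tumors and 110 ± 146 CPM in cells (adjusted p = 0.488).

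Of 11 tested genes of the universal fibroblast program, to which Dpt and Pi16 belong, 7 were higher in tumors than in cells and 1 lower (median 5.57), and against organoids 6 were higher and 2 lower. Their summed CPM overlapped between the types, at 674 to 994 in tumors, 569 to 1061 in organoids and 677 to 845 in cells. In tumors Scara5, a ferritin receptor, was at least 131-fold higher than in cells, which had no count of it (adjusted p = 0.000288). Sema3c, a secreted semaphorin, had 66.3 ± 25.7 CPM in tumors and 346 ± 53.2 CPM in cells (log2 -2.38 ± 0.32 SE, adjusted p = 0.000275), and Anxa3, the list's most counted gene, had 292 ± 37.1 CPM in tumors and 310 ± 33.6 CPM in cells (adjusted p = 0.82). Of 12 fibroblast transcription factors, 9 were higher (median 7.12, or 4.41 with genes at their bound). Prrx1, a homeobox factor of mesenchyme, had 32.5 ± 7.86 CPM in tumors and none in cells, at least 610-fold higher (adjusted p = 1.83e-05). Osr2, the most counted of these factors, had 16.1 ± 2.93 CPM in tumors and 14.8 ± 3.27 CPM in cells (adjusted p = 0.851).

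Between organoids and cells the matrix list moved the other way in part, with 4 of 20 genes lower in organoids and 1 higher. The 4, named after their values were seen, were Col3a1 (log2 -3.67, adjusted p = 0.00992), Col5a2 (-4.49, adjusted p = 0.00386), Fbln1 (-1.69, adjusted p = 0.0141) and Fbln2 (-3.33, adjusted p = 0.015), and Col6a3 was higher (3.24, adjusted p = 0.00457). Col3a1 and Col5a2 are fibrillar collagen chains and the fibulins are matrix glycoproteins. The call of Fbln1 was lost without organoids p8 or p9 or cells p5 or p8 (adjusted p of 0.0568 to 0.0766), and that of Fbln2 without organoids p8 or cells p5 or p8 (0.0505 to 0.0745). The fit of the 6 libraries alone lost the calls of Fbln1 and Fbln2 (adjusted p = 0.0518 and 0.0878). The 2-fold threshold lost them too (adjusted p = 0.237 and 0.0646).

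**Figure D3:**
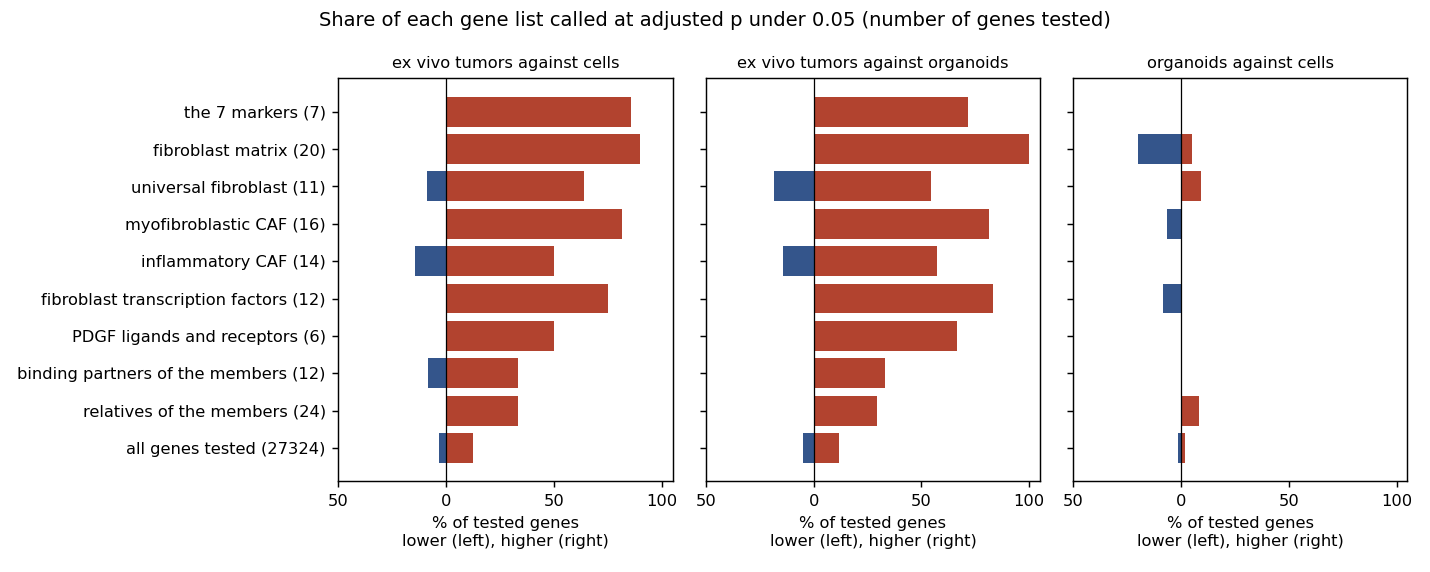
Percent of the tested genes of each list called higher (right of 0) or lower (left of 0) at an adjusted p under 0.05 in each comparison, with the number of genes tested in parentheses. The 7 markers, the matrix genes and the myofibroblastic genes are called higher in most cases in both comparisons of ex vivo tumors. Between organoids and cells few genes are called in most lists, while 4 of the 20 matrix genes are lower and 1 is higher.

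The ligands and receptors of the PDGF system were set beside Pdgfra. Of the 6 other genes, 3 were higher in tumors than in cells, where 12.6% of all genes were. Pdgfrb, the receptor of pericytes and fibroblasts, is also in the matrix list. It had 51.7, 43.7 and 83.1 CPM in tumors 1, 2 and 3, no count in organoids and 1 count in cells (adjusted p = 3.73e-06). The ligand Pdgfd (adjusted p = 0.0165) and the receptor-like Pdgfrl (adjusted p = 0.00021) were also called. Pdgfd was not called without tumor 3 (adjusted p = 0.0759). Pdgfa, the main ligand of Pdgfra, was present in all libraries, with 144, 115 and 109 CPM in tumors 1, 2 and 3, 47.8, 77.2 and 76.0 CPM in the organoid libraries p7, p8 and p9, and 141, 103 and 109 CPM in cells p5, p8 and p11. Organoids had the lowest values, and tumors were called higher than organoids (log2 0.87 ± 0.25 SE, adjusted p = 0.0324), a call lost when any 1 tumor or organoid library was left out (adjusted p of 0.0546 to 0.0991).

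Kit, the stem cell factor receptor and the coding neighbour of Pdgfra in GRCr8, had 7.66, 16.6 and 19.1 CPM in tumors 1, 2 and 3, 34.8, 4.89 and 4.09 CPM in the organoid libraries p7, p8 and p9, and 0.943, 0.848 and 0.910 CPM in cells p5, p8 and p11. It was higher in tumors than in cells (log2 3.99 ± 0.80 SE, adjusted p = 0.00462) and in organoids than in cells (4.01 ± 0.80 SE, adjusted p = 0.0202). The second difference was 2.30 without organoids p7 (adjusted p = 0.00785), and its call was lost without any 1 cell library (adjusted p of 0.0723 to 0.117) and in the fit of the 6 libraries alone (0.0636). Quantile normalization with limma (adjusted p = 0.107) and the 2-fold threshold (adjusted p = 0.0648) lost that call too. Both Kit and Pdgfra were thus highest among cultures in organoids p7. So was Dpp4, the closest relative of Fap and its partner in a membrane complex, with 6.66, 4.20 and 4.59 CPM in tumors 1, 2 and 3, 15.9, 2.11 and 1.98 CPM in the organoid libraries p7, p8 and p9, and 0.988, 1.87 and 0.739 CPM in cells p5, p8 and p11. Dpp4 did not follow Fap, which had no count in that library.

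Of 12 binding partners of the markers, 4 were higher in tumors than in cells (12.6% of all genes) and 1 lower (3.54%). The 4 were Itgb3, Itgam, Itgb2 and Dcn, and Dcn is also in the matrix list. Itgb2, a leukocyte integrin chain of the Thy-1 receptor, had 98.6 ± 17.9 CPM in tumors and 0.147 ± 0.0929 CPM in cells (adjusted p = 2.52e-07). Msn, moesin, which links podoplanin to actin, had 280 ± 127 CPM in tumors and 856 ± 15.1 CPM in cells (log2 -1.61 ± 0.38 SE, adjusted p = 0.0116). The 2-fold threshold did not call Msn (adjusted p = 0.14). Cd44, the podoplanin-binding hyaluronan receptor, was high in every library and lower in organoids p7 (546 CPM) than in p8 and p9 (1796 and 1843 CPM). Of 24 relatives, 8 were higher (12.6% of all genes). Pdgfrb, also a matrix and PDGF gene, and Csf1r, also a macrophage gene, were among the 8. The 8 also held S100a8, a calprotectin subunit of myeloid cells, at 5.56 ± 2.51 CPM in tumors and none in cells (at least 104-fold, adjusted p = 0.000789). Another was Crispld2, of the family of Pi16, at 17.5 ± 8.81 CPM in tumors and 0.162 ± 0.135 CPM in cells (adjusted p = 5.41e-05). S100a11, the most counted relative, had 1104 ± 444 CPM in tumors and 1747 ± 502 CPM in cells (adjusted p = 0.223).

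The 3 tumors did not carry the markers evenly. Relative to the mean of the 3, Pi16 was at 1.80, 0.522 and 0.677 in tumors 1, 2 and 3, S100a4 at 1.68, 0.628 and 0.692, and Dpt at 1.52, 0.506 and 0.978. All of these were highest in tumor 1, and so, by less, were Fap at 1.21 and Thy1 at 1.24, where the summed housekeeping genes were at 1.25 and the epithelial genes at 1.23. Pdpn was highest in tumor 3, at 1.04, 0.828 and 1.14. Pdgfra was also highest in tumor 3, at 0.772, 0.736 and 1.49, and so were the summed matrix genes, at 0.942, 0.681 and 1.38. Per 1000 CPM of the matrix genes, Pi16 had 3.54, 1.42 and 0.913 CPM and Thy1 had 6.67, 4.38 and 4.32 CPM in tumors 1, 2 and 3.

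Many markers of other cell types were also called higher in the tumors, and several sums were highest in tumor 1. Macrophage markers were higher than in cells in 14 of 14 genes, with a summed level of 3487 to 4180 CPM in tumors, 4.29 to 6.79 CPM in organoids and 3.82 to 7.51 CPM in cells. The summed adipocyte markers were 630, 39.4 and 58.4 CPM in tumors 1, 2 and 3, against 52.7 to 114 CPM in organoids and 18.5 to 37.4 CPM in cells, so tumors 2 and 3 were not above all organoids. The sums were, in tumors 1, 2 and 3, for lymphatic endothelium 265, 25.3 and 36.2 CPM, for B and plasma cells 545, 25.3 and 76.8 CPM, and for T and NK cells 212, 70.0 and 94.1 CPM. Tumor 1 had the highest sums of these last 4 lists as well as the highest Pi16, S100a4 and Dpt. It was also highest for the erythrocyte, endothelial, mesothelial, epithelial and housekeeping sums, at 2.07, 1.20, 1.13, 1.23 and 1.25 times the mean of the tumors. The macrophage, pericyte and smooth muscle sums were highest in tumor 3, at 1.11, 1.24 and 1.26. Of the genes tested, lymphatic endothelium had 6 of 6 higher than in cells, mesothelium 6 of 9, pericytes 8 of 10, T and NK cells 9 of 9, B and plasma cells 7 of 7 and adipocytes 5 of 8 with 1 lower. The summed mesothelium markers were 354 to 450 CPM in tumors, 200 to 304 CPM in organoids and 313 to 461 CPM in cells, so tumors overlapped cells. The summed pericyte markers were 151.5 to 275 CPM in tumors, 73.1 to 223 CPM in organoids and 86.6 to 152.3 CPM in cells, so tumors overlapped both cultures. The part of these cell types in the levels of Pdpn, Thy1, S100a4, Dpt and Pi16 was not tested. The defining macrophage gene C1qa had no count in cells, and 4 of 6 lymphatic and 7 of 9 T and NK cell markers were at 0 there.

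**Figure D4:**
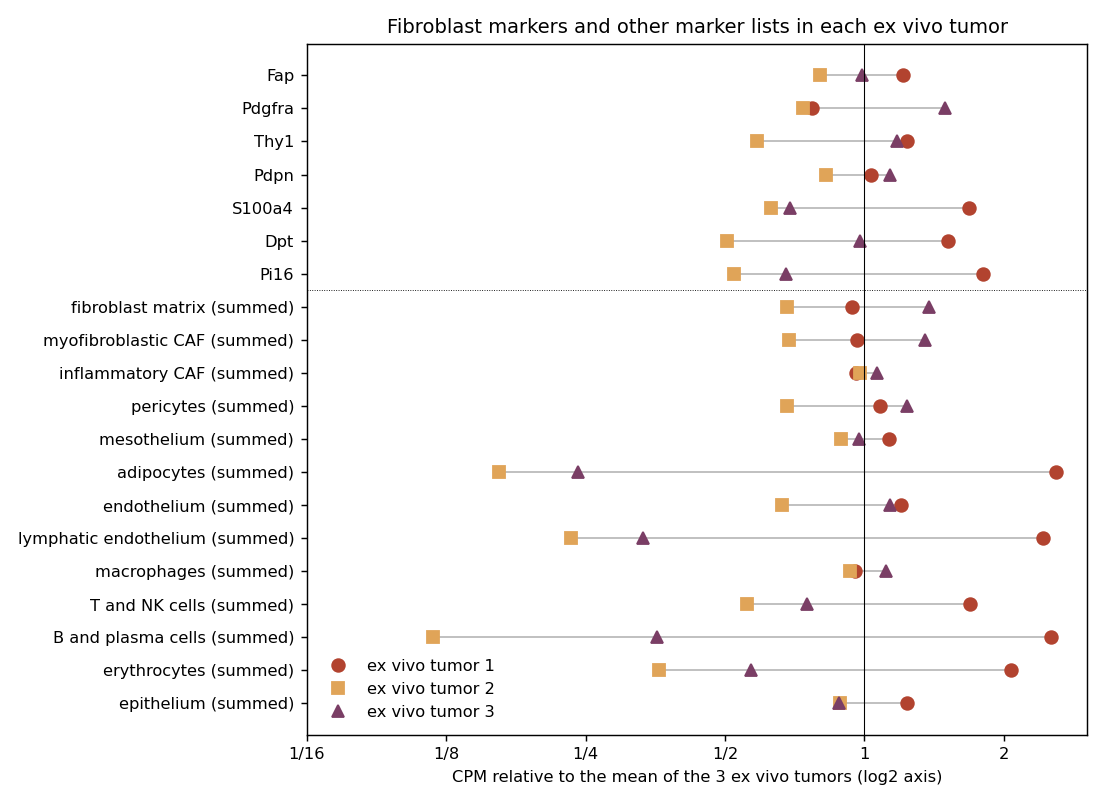
Level of each marker and summed level of other marker lists in ex vivo tumors 1, 2 and 3, as a multiple of the mean of the 3 tumors (log2 axis; a line joins the 3 tumors). Tumor 1 is highest for Pi16, S100a4, Dpt, Fap and Thy1. It is also highest for the adipocyte, lymphatic, B and plasma cell, T and NK cell, erythrocyte, endothelial, mesothelial and epithelial sums. Pdpn, Pdgfra and the matrix, myofibroblastic, inflammatory, pericyte and macrophage sums are highest in tumor 3.

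The genes whose pattern over the 9 libraries was most like each marker were taken by Pearson's r of log2(CPM + 1) among 10735 genes with a mean of at least 5 CPM; the libraries form a tumor cluster and a culture cluster, so a high r mainly states that both genes were near 0 in culture. For Fap, 228 genes had an r of at least 0.99, led by Fyn, Cd163 and Laptm5. The numbers were 230 for Thy1, led by Cxcl13, Pik3cg and Lum, 245 for Pdpn, led by Clec4a1, Fcrl2 and Ubd, and 123 for Dpt, led by Pla2g2d, S1pr1 and Il21r. No gene reached 0.99 for Pdgfra, Pi16 or S100a4. The nearest were Nynrin, Ece1 and Enpp2 for Pdgfra (0.9884 to 0.9826), Vps28, Cd22 and Ptp4a3 for Pi16 (0.9896 to 0.979) and S100a14, Dgat2 and Id1 for S100a4 (0.8982 to 0.8762).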

How the data were processed

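Messenger RNA of 3 tumor, 3 organoid and 3 cell samples was sequenced on an Illumina HiSeq. Per the labels and the study's methods, the authors trimmed 11 bases, removed bases under Phred 20 and aligned with STAR 2.7.4 to mRatBN7.2. The submitters' notes also name cutadapt 1.18, FastQC 0.11.9 and MultiQC 1.9. No source used here names the annotation or strand setting. The deposited table is named as normalized, but it holds whole numbers from 0 for 34322 genes with totals that differ between libraries, and these were taken as raw read counts. All CPM and p-values rest on that reading. All 9 columns were used.

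Counts were fitted in edgeR 4.0.16 (R 4.3.3; limma 3.58.1, DESeq2 1.42.0; figures with Python 3.11.15 and matplotlib 3.10.9) with 1 quasi-likelihood model over the 9 libraries, TMM scaling and Benjamini-Hochberg adjustment over all 27324 genes with a count (threshold 0.05). The prior degrees of freedom (5.749) were estimated on the 16162 genes kept by filterByExpr, because the default gave more false calls on simulated data, although it also found more of the true differences there. In the simulated data only a small set of well counted genes differed between sample types, whereas far more genes differed between tumors and cultures here. Whether the rates of false calls carry over to these libraries was not tested. This choice of prior was made after the data, the default's calls and the simulated test had been seen. With the default, Pdgfra was called in organoids against cells (adjusted p = 0.0135) and in ex vivo tumors against organoids (adjusted p = 0.00688), and Pdpn in organoids against cells (adjusted p = 0.0466). Every limma-voom fit named in the text weighted each library by its estimated quality, so the libraries did not count equally. Each SE of a log2 fold change was derived from the test, as its absolute value divided by the square root of the quasi-likelihood F statistic. Intervals are log2 fold change ± 2.184 SE. Ratios against 1 to 3 counts have exact 95% counting intervals. The lowest chi-square per gene between replicates was 4.17, so none was merged.

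The markers and all lists were chosen with earlier results of these data known. For the lists of fibroblast genes, PDGF genes, binding partners and relatives, the most counted gene is named. So are the called rise and fall with the largest change in ex vivo tumors against cells without overlap. The same holds for pericytes, smooth muscle, endothelium, mesothelium and macrophages. Of epithelium only the rise is named, and of the remaining lists no gene was chosen by this rule. Binding partners, relatives and PDGF genes were also named beside a marker. The 3 most similar genes are named per marker. RefSeq (GRCr8) held the symbol of 7 of 7 markers.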

Additional observations from a re-analysis of the deposited data

How the results depend on the processing

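No paired analysis was possible because organoids and cells share only passage number 8 and the ex vivo numbers are not passages, so no fit with a replicate block was made.

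Over the fold changes of single genes, 2 turned in sign: S100a4 in organoids against cells was -0.075 without organoids p7 and -0.111 without cells p8 (range -0.111 to 0.214 over left-out libraries). With the study's filter (13331 genes, of which 3 markers), 2 markers were called higher in ex vivo tumors against cells and 2 against organoids. In organoids against cells, DESeq2, limma-voom and the default prior each called 1 marker higher, and limma-voom and the default prior called 1 lower; limma-voom also called 1 marker, S100a4, lower in ex vivo tumors against organoids (-0.87, adjusted p = 0.032). Leaving out 1 library gave 0 to 1 markers lower in ex vivo tumors against cells, and likewise 0 to 1 against organoids. Quantile normalization, which shifted the median of the 14461 genes with a mean of at least 1 CPM by -0.165 against cells and -0.169 against organoids, lost Pi16 against cells (1.51, adjusted p = 0.0762) and organoids (1.17, adjusted p = 0.15).

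Over all genes, 4397 were called in ex vivo tumors against cells, 4564 against organoids and 861 in organoids against cells. In that order the study's filter gave 2554, 3027 and 1431, limma-voom 6984, 8734 and 7593, and the 2-fold threshold 2745, 2657 and 229. In organoids against cells filterByExpr gave 1524, DESeq2 2457, the 6 libraries alone 498 and the default prior 2113. Leaving out 1 library gave 2993 to 5693 in ex vivo tumors against organoids and 250 to 2268 in organoids against cells. Calls were higher in tumors in 78% against cells and 70.2% against organoids, and in 45.8% and 45.4% with quantile normalization. Depth limited what could be said of Fap, Thy1, Pdpn and Dpt between the cultures, where counts were at or near 0.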

Other observations

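Many genes that mark other cell types of a tumor were also higher in ex vivo tumors. Among pericyte genes, Rgs5, a regulator of G protein signalling, had 14.2 ± 7.22 CPM in ex vivo tumors and no count in cells, at least 260-fold higher (edgeR, adjusted p = 0.00016). Actg2, the smooth muscle gamma actin, had 28.0 ± 3.55 CPM in tumors and none in cells, at least 531-fold higher (adjusted p = 1.04e-05), with 5 of 7 smooth muscle genes called. Plvap, of fenestrated endothelium, had 49.2 ± 23.5 CPM in tumors and none in cells, at least 884-fold higher (adjusted p = 7.79e-06), with 10 of 12 endothelial genes called. Muc16 of mesothelium had 1.97 ± 0.330 CPM in tumors and none in cells, at least 36.9-fold higher (adjusted p = 0.00162). C1qa, a complement gene of macrophages, had 281 ± 85.8 CPM in tumors and none in cells, at least 5199-fold higher (adjusted p = 4.32e-06). The most counted genes of these lists did not all rise. Notch3 of pericytes had 59.7 ± 22.1 CPM in tumors and 110 ± 34.4 CPM in cells (adjusted p = 0.285). Tek of endothelium had 26.8 ± 4.51 and 49.1 ± 1.95 CPM (adjusted p = 0.165). Msln of mesothelium had 358 ± 49.7 and 378 ± 73.3 CPM (adjusted p = 0.864). Myh11 of smooth muscle was higher in tumors (35.8 and 11.9 CPM, adjusted p = 0.00302). So was Lyz2 of macrophages (2273 and 0.200 CPM, adjusted p = 7.16e-08).

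Erythrocyte genes were higher in tumors than in cells in 7 of 8 cases and nerve and glia genes in 3 of 7. Against organoids the counts were 7 of 8 and 1 of 7. The summed nerve and glia genes were 5.14 to 5.37 CPM in tumors, 3.75 to 6.28 CPM in organoids and 2.34 to 3.45 CPM in cells, so tumors overlapped organoids. Of 14 epithelial genes 5 were higher in tumors than in cells (12.6% of all genes) and 0 differed from organoids at the threshold in edgeR. Vil1, villin, had 95.6 ± 3.59 CPM in tumors and 15.9 ± 4.15 CPM in cells (log2 2.58 ± 0.46 SE, adjusted p = 0.00196).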
